A study of Caenorhabditis elegans with 43 samples.

Results

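The genes described here encode proteins of the mitochondrial ribosome in the nematode Caenorhabditis elegans. They were chosen by name: every row of the deposited count table whose gene symbol starts with mrpl (large subunit) or mrps (small subunit) followed by a number. This gave 69 genes of the 20182 in the table, 40 named for the large subunit and 29 for the small one. One more gene of this naming scheme, mrpl-42, had no row to match and was not analysed here. Genes for mitochondrial ribosomal proteins with other symbols, dap-3 among them, fall outside the rule. mrpl-51 was singled out in advance for its course by strain, with earlier results of these data known.

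Mitochondria translate the few messages of their own genome on ribosomes of their own. The RNA of those ribosomes comes from the mitochondrial genome, whereas all their proteins are encoded in the nucleus, made on cytosolic ribosomes and imported into the organelle. Their products are subunits of the respiratory chain and the ATP synthase, so both genomes have to contribute to the same complexes. In C. elegans, lowering mrps-5 during larval growth is known to unbalance these contributions, to induce the mitochondrial unfolded protein response and to lengthen life.

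Ribosome-protected fragments (footprints) of whole animals were sequenced in 43 libraries, one per strain and time point, taken every 2 h after synchronised first-stage larvae were put on food. The wild type N2, a lin-41(xe11) strain and a strain with both mutations, lin-41(xe11); let-7(n2853), called the double mutant here, formed 1 time course with 11 libraries each, from 18 to 38 h, and let-7(n2853) formed another with 10 libraries, from 18 to 36 h. The n2853 allele weakens the let-7 microRNA, and xe11 changes the let-7 sites in the 3′ UTR of lin-41, which encodes an RNA-binding TRIM-NHL protein. Monosomes of let-7(n2853) were purified on sucrose gradients and those of the other 3 strains by size-exclusion chromatography, so that strain, time course and purification cannot be told apart for let-7(n2853). The study asked how let-7 and LIN41 control gene expression after transcription as larvae develop from the end of the second or start of the third larval stage towards adulthood. A footprint count reflects both the amount of a message and how much it is translated in the cytosol; the deposited table does not separate them, and it does not measure protein or translation inside mitochondria.

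Library totals ran from 5020197 to 32261888 counts. The labels could be checked on lin-41, whose level as CPM (counts scaled to library size with TMM factors) was 61.05 at 18 h, 6.35 at 32 h, 19.4 at 36 h and 43.9 at 38 h in N2. At 34 h lin-41(xe11) was at its lowest, 16.7 CPM, as was the double mutant with 20.1 CPM, and at 38 h these strains had 57.4 and 43.7 CPM. At 28 to 32 h N2 had 6.35 to 7.48 CPM and these strains had 24.98 to 40.6 CPM, while at 38 h N2 and the double mutant were level. In let-7(n2853) the level stayed between 52.6 and 79.7 CPM. Markers of germline, body wall muscle, intestine, neurons and epidermis were found in every library. The summed level of 14 germline markers was 595 ± 113 CPM (SD, n = 4 libraries) at 18 to 24 h in N2 and 1440 ± 293 CPM (n = 5) at 28 to 36 h, while that of 6 neuronal markers was 203 ± 18.0 and then 150 ± 16.2 CPM. Sperm markers went from 0 CPM in N2 at 20 h to 208 CPM at 38 h. In whole animals fewer cells of a type and less RNA per cell cannot be told apart, and the part of this changing cell makeup in the results that follow was not tested.

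All 69 genes were translated at moderate and similar levels. Together they held 0.339% to 0.567% of the counts of a library, each gene had between 107 and 13369 counts in every library, and all 69 passed the filter on low counts in every fit. Divided by coding length, mean levels over the 43 libraries ran from 43.1 to 297 CPM per kilobase with a median of 78.9, and 66 of the 69 lay within 2-fold of the median. Compared per kilobase by name class, the median was 76.6 for 24 large-subunit genes with bacterial-type names and 85.3 for 16 with mitochondrial-type names. In the small subunit it was 78.9 for 17 genes with bacterial-type names and 74.1 for 12 with mitochondrial-type names. The class goes by the name alone, and the origin of each protein was not examined. These medians all lie inside the range from the lower to the upper quartile of the 69 genes, 64.8 to 101.5.

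The highest level per kilobase belonged to mrpl-44, whose human counterpart has a fold related to RNase III. It had 297 CPM per kilobase and ranged from 234 to 357 over the libraries. Its count is uncertain, because in the WBcel235 annotation 164 of its 1182 coding bases are shared on the same strand with mccc-2; no other of the 69 genes shared coding bases with another gene. Next came mrpl-12, the large-subunit stalk protein that contacts translation factors, with 186 CPM per kilobase. The small-subunit genes mrps-14 (159) and mrps-16 (158, both in CPM per kilobase) and the core large-subunit gene mrpl-15 (154) completed the 5 highest. The 5 lowest were mrps-31 (43.1), the core gene mrpl-13 (46.1), the mitochondria-specific mrpl-37 (50.5), mrps-18A (55.3) and mrpl-45 (55.3, all in CPM per kilobase). The human counterpart of mrpl-45 links the ribosome to the inner membrane. In the plot of levels per kilobase, neighbours in this order overlap in their ranges over the libraries.

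**Figure D1:**
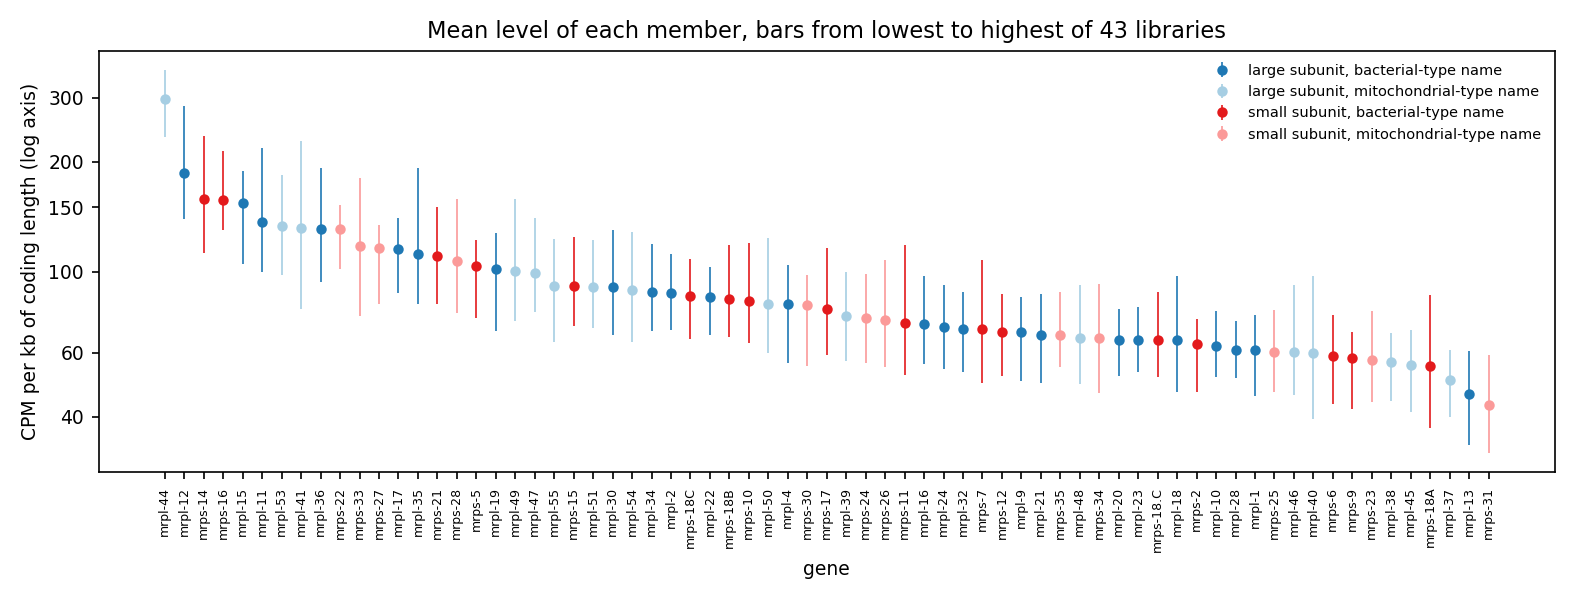
Footprint level of each of the 69 genes per kilobase of coding length (log axis, CPM), points at the mean of 43 libraries and lines from the lowest to the highest library, coloured by subunit and name class. Apart from mrpl-44 at 297, means decline gradually from 186 to 43.1, and the 4 classes are mixed along the order.

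The genes were spread over the autosomes. Of the 69, 22 (31.9%) lay on chromosome III, which holds 13.3% of the genes in the table, 15 on I, 12 on II and 10 each on IV and V. None lay on X, which holds 13.7% of the genes. For 26 of the 69 (37.7%), a gene on the same strand ended within 500 bases upstream, as for 18.5% of 18772 genes; this spacing is usual in the operons of C. elegans, and mrps-2 lies just upstream of mrpl-4 in this way. These positions are from the WBcel235 annotation and were compared without a test. Exons of 6 of the genes overlapped another gene on the same strand and those of 13 a gene on the opposite strand.

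Over the hours sampled, the genes of the mitochondrial ribosome held nearly steady in all 4 strains. In N2 their summed level was 4445 CPM at 18 h and 4446 CPM at 20 h, dipped to 3803 CPM at 24 h, stood at 4451 CPM at 28 h and was lowest at 34 h, with 3532 CPM. The sum lay between 3950 and 4592 CPM in the double mutant, between 3963 and 4519 CPM in lin-41(xe11) and between 4931 and 5525 CPM in let-7(n2853). The last strain thus had the highest sums, in libraries of another course and purification. For a single gene in N2, the highest of 11 libraries was by median 1.42 times the lowest, against 1.62 times for the 4605 genes in the same range of mean level. The steadiest gene in N2 was mrps-15, a core small-subunit protein, with 74.2 CPM at the lowest hour, 80.8 at the median and 88.1 at the highest (a ratio of 1.19), and the widest was mrps-30, with a ratio of 1.74. In no strain did any of the 69 genes exceed a ratio of 2, which 28.5% of the 4605 genes did in let-7(n2853), 34.2% in the double mutant, 33.5% in lin-41(xe11) and 32.4% in N2.

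**Figure D2:**
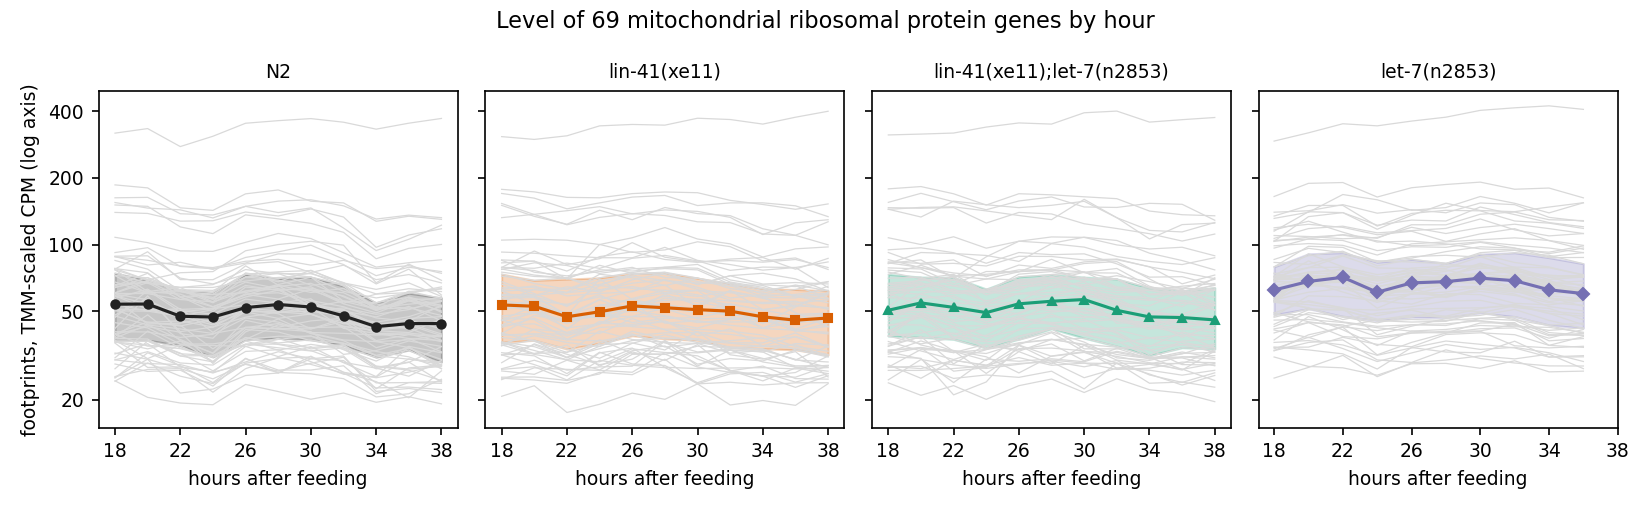
Footprint level of 69 genes by hour after feeding in 4 strains (log axis, TMM-scaled CPM), thin lines for single genes, shaded band from the lower to the upper quartile and thick line for the median gene. Median levels stay between 42.7 and 53.99 CPM in N2 and between 60.2 and 71.3 CPM in let-7(n2853), and the lines run nearly parallel.

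The passage from 18 to 24 h to 28 to 36 h was tested within each strain, with hours standing in for replicates (4 against 5 libraries). In N2 none of the 69 genes was called by edgeR at an adjusted p under 0.05, when 16.5% of all genes tested were. Unadjusted p was under 0.05 for 9 of the 69 (33.3% of all genes), DESeq2 called 1 and limma on the deposited log2 table called 10, all lower. The median log2 fold change was −0.06 over the 69 genes and −0.02 over all genes, with 52 of the 69 below 0. In lin-41(xe11) edgeR called 0 of 69 (all genes 17.2%; 5 at unadjusted p under 0.05 against 31.9% of all genes, 2 by DESeq2 and 4 by limma) with a median of −0.02, and in the double mutant 0 of 69 (all genes 12.6%; 7 at unadjusted p under 0.05 against 27.8% of all genes, 3 by DESeq2 and 1 by limma) with a median of −0.03. The shares called by edgeR and those at unadjusted p under 0.05 lie well under the shares of all genes in the same libraries. For the DESeq2 and limma counts no share of all genes is given here, so they are not compared with a background. On the log2 table, which the authors scaled to a fixed total, the median of all genes itself moved to −0.19 in N2, and the 69 genes then had a median of −0.23.

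The genes with the lowest N2 values in this comparison were mrpl-13, mrps-30, mrpl-45, mrpl-15 and mrps-34, from −0.29 to −0.24 on the log2 scale, and none passed the test. mrpl-13, for instance, had 32.45, 30.4, 27.6 and 24.8 CPM at 18, 20, 22 and 24 h and 26.5, 26.2, 24.9, 20.6 and 21.3 CPM at 28 to 36 h. The 2 windows overlapped, and its log2 fold change was −0.29 ± 0.09 (SE, adjusted p = 0.0586 by edgeR; 0.0256 to 0.265 over the alternatives). mrps-30, whose human counterpart sits in the large subunit in spite of its name, had 151, 149, 120 and 112 CPM early and 131, 125, 114, 86.4 and 96.2 CPM late, a log2 difference of −0.29 ± 0.12 (adjusted p = 0.127 by edgeR). At the other end were mrps-14, mrpl-44, mrps-28, mrpl-55 and mrpl-53, from 0.26 to 0.10. mrps-14, a core protein of the small-subunit head, had 76.9, 69.3, 74.7 and 75.6 CPM early and 100.1, 103.5, 99.5, 67.3 and 81.7 CPM late in N2. Its late values were above the early ones except at 34 h, and the log2 difference of 0.26 ± 0.10 did not pass (adjusted p = 0.108 by edgeR).

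In let-7(n2853), 3 of the 69 genes were called over the same hours (all genes 20.4%). mrps-14 rose from 96.5, 106, 111 and 107 CPM at 18 to 24 h to 123, 137, 140, 129.5 and 128 CPM at 28 to 36 h, with no overlap (log2 fold change 0.34 ± 0.07, adjusted p = 0.0103 by edgeR). mrpl-44 rose from 293, 319, 351 and 343 CPM to 375, 403, 414, 422 and 407 CPM, also without overlap (0.32 ± 0.08, adjusted p = 0.0203 by edgeR), with the limit on its counts given above. In this strain 4 of the 69 genes had all late values above all early ones, as did 1294 of 11644 genes tested. All late values lay below all early ones for 2 of the 69 and for 1223 of the 11644. Lack of overlap was thus no more frequent among the 69 than among all genes. mrpl-11, a core protein at the base of the large-subunit stalk and outside the rule for named genes, was named after its values were seen. It fell from 116.5, 127.5, 114 and 103 CPM to 101, 95.7, 94.6, 92.4 and 98.7 CPM (−0.24 ± 0.07, adjusted p = 0.0378 by edgeR). Each of the 3 had the same sign in the other 3 strains, where none was called. The difference of the late minus early change between let-7(n2853) and N2 was called for 0 of the 69 (all genes 0.0230%; 2 at unadjusted p under 0.05 against 10.4% of all genes, 0 by DESeq2 and by limma), with a value of 0.05 ± 0.13 for mrps-14, 0.11 ± 0.11 for mrpl-44 and −0.09 ± 0.09 for mrpl-11. Leaving out single hours kept the call of mrps-14 at every hour, ended that of mrpl-44 without 18, 20, 32, 34 or 36 h and ended that of mrpl-11 at every hour except 24 and 28 h. On the deposited log2 table limma called neither mrps-14 (0.19, adjusted p = 0.138) nor mrpl-44 (0.18, adjusted p = 0.173). Without both 34 and 36 h none of the 3 was called, nor was any other of the 11404 genes then tested.

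**Figure D3:**
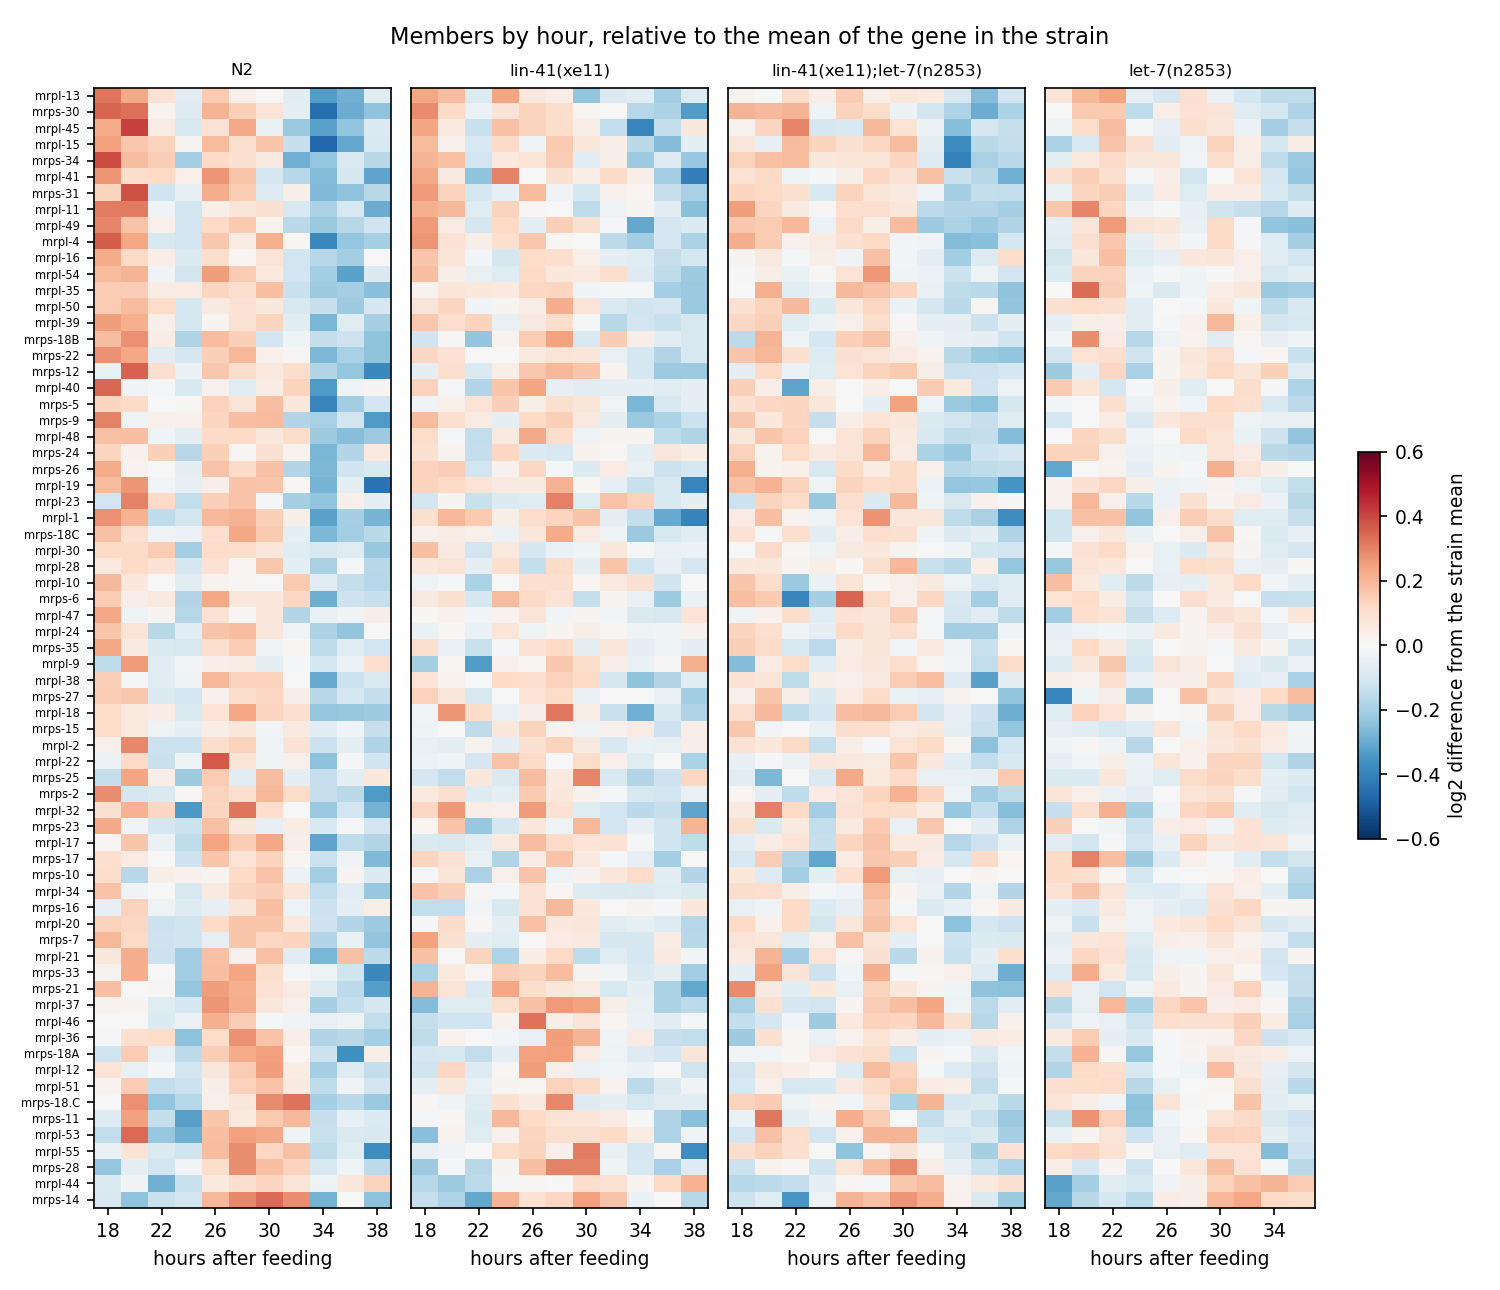
Level of each gene by hour as the log2 difference from its own mean in the strain (red above, blue below), with genes ordered by their late against early value in N2, from mrpl-13 at −0.29 to mrps-14 at 0.26. In the double mutant, lin-41(xe11) and N2, most genes turn blue together from 34 h on, while mrpl-44 stays near or above its mean.

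A comparison of the end of the course with the hours before it was added after the courses had been seen. At 34, 36 and 38 h the sum of the 69 genes in N2 was 3532, 3765 and 3700 CPM, and at 28, 30 and 32 h it was 4451, 4387 and 4078 CPM, with no overlap. With 3 libraries a side, edgeR called 0 of the 69 (all genes 0.130%; 1 by DESeq2 and 1 by limma). Unadjusted p was under 0.05 for 15 of the 69, a smaller share than the 27.7% of all genes. Of the 69, 63 were below 0, with a median of −0.13 against −0.02 for all genes. The hours were split after the courses were seen, so the direction in N2 was partly set by that choice. The 69 genes also share these libraries and are not independent observations. In lin-41(xe11) 43 were below 0 with a median of −0.04, and in the double mutant 50 with a median of −0.07; edgeR called 0 in each (all genes 0.00% in both; 1 and 2 at unadjusted p under 0.05, against 17.4% and 13.55% of all genes, and 0 by DESeq2 and by limma). The lowest value in N2 was that of mrps-14, −0.37 ± 0.09 (adjusted p = 0.0843 by edgeR). The difference between strains in this step was not tested. Other groups of genes moved between the same N2 libraries without overlap. The sum of 6 intestine markers was 3340, 4297 and 4448 CPM at 28, 30 and 32 h and 2486, 2418 and 2758 CPM at 34, 36 and 38 h. That of 16 import and chaperone genes was 5033, 5154 and 4862 CPM and then 3773, 3883 and 3702 CPM. Germline markers went the other way, from 1080, 1290 and 1360 CPM to 1657, 1812 and 2001 CPM, as did 4 sperm markers, from 7.21, 28.3 and 74.1 CPM to 180.1, 202.6 and 208.1 CPM. No gene of these 4 lists was called here, and their part in the lower sum of the 69 genes was not tested.

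When hours were tested with the 3 strains of the second course as replicates, 47 of the 69 genes (68.1%) differed between hours (all genes 89.2%). Hours were also fitted as a wave with a period of 8 h, near the length of a larval molting cycle. For this wave 11 of the 69 were called (all genes 56.3%), and the median amplitude was 0.05 on the log2 scale against 0.19 for all genes. The amplitude measures the wave alone and not the size of other differences between hours. The 3 largest amplitudes were those of mrpl-32 (0.10, adjusted p = 0.0106 by edgeR), mrpl-45 (0.10, adjusted p = 0.0389) and mrpl-23 (0.10, adjusted p = 0.0485 by edgeR), the last encoding a protein at the exit of the peptide tunnel. The 11 called genes peaked between 3.22 and 6.33 h after multiples of 8 h. The latest was mrps-5 at 6.33 h, and the others lay between 3.22 and 4.94 h, that is, around 20, 28 and 36 h. The fit takes a straight trend over the hours apart from the wave, and at 36 h the N2 sum itself was among its lowest. mrps-5, one of the 11 called genes, was chosen here for its known role after its values were seen. It had an amplitude of 0.09 (adjusted p = 0.00387 by edgeR) and 97.3, 133 and 145 CPM as its lowest, median and highest value in N2. Without 34, 36 and 38 h, 25 of the 69 were called for the wave (all genes 48.0%) and 25 for any change (all genes 76.2%), both still under the share of all genes.

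Most of the genes correlated with the rest of the group, most closely in N2. In N2 the log2 level of a gene had a median Pearson correlation of 0.79 with the median of the other members over 11 libraries, which share depth, scaling and developmental time. The corresponding medians were 0.67 in the double mutant, 0.60 in lin-41(xe11) (both n = 11) and 0.62 in let-7(n2853) (n = 10). mrpl-44 had the lowest value in each of the 4 strains, from −0.48 to 0.07.

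Genes of the cytosolic ribosome did not hold steady. Of 76 cytosolic ribosomal protein genes, 75 were tested in N2 late against early and 70 rose (all genes 8.33% higher), with a median of 0.67 on the log2 scale, and their sum went from 59830 ± 7295 CPM (SD, n = 4) to 95090 ± 9111 CPM (n = 5). The 69 mitochondrial genes summed to 4162 ± 334 CPM (n = 4) and then 4043 ± 395 CPM (n = 5), so the groups overlapped. In let-7(n2853) 12 of the 75 cytosolic genes rose (all genes 10.1% higher), with a median of 0.34.

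For other nuclear genes of mitochondrial gene expression, N2 gave no calls between the windows either, when 16.5% of all genes were called and 8.33% were called higher. None of 11 tested genes of a translation factor list was called (median −0.13, with −0.16 ± 0.09 for the elongation factor gene tufm-1). That list also holds dap-3 (−0.22 ± 0.11), a mitochondrial ribosomal protein gene outside the naming rule. Nor was any of 10 aminoacyl-tRNA synthetases (median 0.02), 16 import and chaperone genes (median −0.06) or 5 genes of mitochondrial DNA maintenance and transcription (median 0.11) called. Of 37 nuclear genes of the respiratory chain and ATP synthase, 10 rose (all genes 8.33%), with a median of 0.17. The 3 largest of these were ucr-2.3 (1.64 ± 0.27, adjusted p = 0.0117 by edgeR), asb-1 (1.37 ± 0.21, adjusted p = 0.0107) and sdha-2 (1.02 ± 0.18, adjusted p = 0.0124 by edgeR); asb-1 is known as a germline form of an ATP synthase subunit. Germline markers rose beside them, 11 of 14 with a median of 1.27. The proteins encoded in mitochondrial DNA were not analysed here.

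Between strains, mrpl-51 was the member that stood out. It encodes a protein particular to the large subunit of mitochondrial ribosomes, lies on chromosome IV and has 597 coding bases (WBGene00011740). In N2 it had 57.3, 63.0, 51.1, 51.7, 58.1, 62.3, 63.65, 58.7, 50.9, 55.75 and 52.4 CPM from 18 to 38 h. In lin-41(xe11) it had 45.3, 49.15, 45.6, 47.6, 47.5, 51.8, 50.9, 47.8, 42.2, 44.4 and 46.3 CPM, and in the double mutant 43, 46.9, 42.97, 43.1, 47.7, 49.7, 51.1, 47.6, 47.2, 41.7 and 45.8 CPM. At each of the 11 hours both strains were below N2. In let-7(n2853), in the other course, it had 72.2, 72.3, 72.75, 60.03, 65.2, 67.4, 67.8, 72.0, 64.8 and 60.2 CPM from 18 to 36 h. Means were 46.1 ± 3.03 CPM in the double mutant, 47.2 ± 2.81 in lin-41(xe11), 56.8 ± 4.86 in N2 (SD over 11 hours each) and 67.5 ± 4.89 in let-7(n2853) (SD over 10 hours).

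With hour in the fit, mrpl-51 fell by 0.27 ± 0.03 on the log2 scale in lin-41(xe11) against N2 (1.205-fold lower; adjusted p = 7.5e-06 by edgeR) and by 0.31 ± 0.03 in the double mutant (1.24-fold lower; adjusted p = 3.18e-07 by edgeR). Both comparisons use the same N2 libraries. With 1 library per strain and hour, these p-values measure how steady the gap was over the hours, not its reproducibility between independent cultures. The double mutant and lin-41(xe11) differed by −0.04 ± 0.03 (adjusted p = 0.82 by edgeR). In the windows taken separately and against N2, lin-41(xe11) had −0.26 ± 0.05 at 18 to 24 h (adjusted p = 0.11 by edgeR) and −0.30 ± 0.05 at 28 to 36 h (adjusted p = 0.00313 by edgeR). The double mutant had −0.36 ± 0.05 (adjusted p = 0.00629) and −0.30 ± 0.05 (adjusted p = 0.00138 by edgeR). The early call in the double mutant was lost without 18 h (adjusted p = 0.119) or without 20 h (adjusted p = 0.123 by edgeR). The late calls were lost without 34 and 36 h, with an adjusted p of 0.0579 for the double mutant, while lin-41(xe11) had 0.221 by edgeR. Without an hour term mrpl-51 was called in no window, with adjusted p from 0.111 to 1 by edgeR. The early value of lin-41(xe11) was called by DESeq2 (adjusted p = 0.0299) and in wider windows (adjusted p = 0.0134 by edgeR). Between the windows mrpl-51 itself had 0.11 ± 0.07 in the double mutant, 0.03 ± 0.06 in lin-41(xe11), 0.05 ± 0.08 in N2 and −0.05 ± 0.07 in let-7(n2853), none of them called.

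Set against the other members in the same library, mrpl-51 was highest in N2. It stood at 1.07 to 1.27 times the median of the other 68 genes in N2, at 0.822 to 0.996 times in the double mutant and at 0.845 to 1.00 times in lin-41(xe11), so that the ranges did not overlap with N2. In let-7(n2853), where its CPM was the highest of the 4 strains, the ratio was 0.959 to 1.16. This range overlapped N2, but the mean ratio was lower (1.025 against 1.17), and at 9 of 10 shared hours the ratio was below that of N2. The median of the other 68 genes was itself 60.16 to 71.19 CPM in let-7(n2853), against 42.53 to 53.58 CPM in N2. Here the strains also differ in time course and purification, so the lower ratio cannot be assigned to the strain. Counted from the highest, its rank among the 69 was 22 to 33 in N2 and 35 to 47 in the double mutant.

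**Figure D4:**
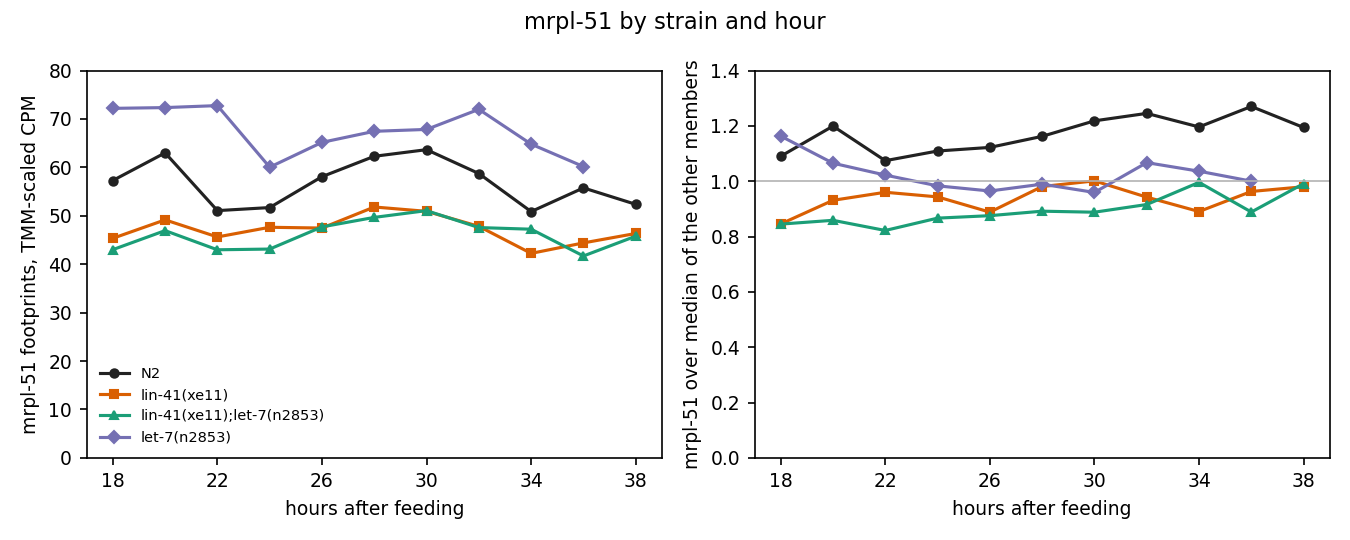
mrpl-51 by hour after feeding in 4 strains, left as TMM-scaled CPM and right as a ratio to the median of the other members in the same library. lin-41(xe11) (mean 47.2 CPM) and the double mutant (mean 46.1 CPM) lie below N2 (mean 56.8 CPM) at all 11 hours, and let-7(n2853) comes from another time course and purification.

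The other members leaned slightly the other way. Over all hours 57 of 69 had a value above 0 in lin-41(xe11) against N2, with a median of 0.05 (all genes −0.0035), and edgeR called 2 of the 69, mrpl-51 down and mrpl-1 up, when it called 0.950% of all genes. Unadjusted p was under 0.05 for 19 of the 69, against 9.53% of all genes. In the double mutant 64 of 69 were above 0 with a median of 0.07 (all genes −0.01), and 3 of the 69 were called (all genes 2.24%): mrpl-51 down, mrps-28 and mrps-33 up. Here unadjusted p was under 0.05 for 31 of the 69, against 16.2% of all genes. Leaving out 34, 36 and 38 h, when the N2 sums were lowest, put 29 of 69 below 0 in lin-41(xe11), with a median of 0.01, and 11 below 0 in the double mutant, with a median of 0.04. The double mutant against lin-41(xe11) gave 0 calls (all genes 0.285%; 7 at unadjusted p under 0.05 against 7.82% of all genes, 0 by DESeq2 and by limma), with a median of 0.01.

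mrpl-1, which encodes a core protein of the large-subunit stalk that releases spent tRNA, had 54.7, 77.3 and 82.8 CPM as its lowest, median and highest value in lin-41(xe11), against 51.7, 66.1 and 77.98 CPM in N2. It was above N2 at 10 of 11 hours (0.16 ± 0.04, adjusted p = 0.042 by edgeR; 0.13 ± 0.04, adjusted p = 0.074, in the double mutant). Its call was lost at 9 of 11 single hours left out, all but 18 and 28 h, with adjusted p up to 0.141. mrps-28 had 45.8, 52.4 and 63.3 CPM in the double mutant against 39.7, 45.7 and 56.4 CPM in N2 and was above N2 at all 11 hours (0.15 ± 0.03, adjusted p = 0.0141 by edgeR), a call kept whichever single hour was left out. mrps-33, particular to mitochondrial small subunits, had 34.2, 41.6 and 49.6 CPM against 28.6, 37.4 and 44.1 CPM and was above N2 at 10 of 11 hours (0.15 ± 0.04, adjusted p = 0.0447 by edgeR); among single hours left out, the call remained only without 18, 24 or 26 h. Without 34, 36 and 38 h together none of the 3 was called, with adjusted p = 0.312 for mrpl-1, 0.216 for mrps-28 and 0.495 for mrps-33 by edgeR, and without an hour term each had an adjusted p of 1. The ranges of these 3 genes overlapped between the strains. In lin-41(xe11), mrps-28 had 0.11 ± 0.03 (adjusted p = 0.114 by edgeR).

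**Figure D5:**
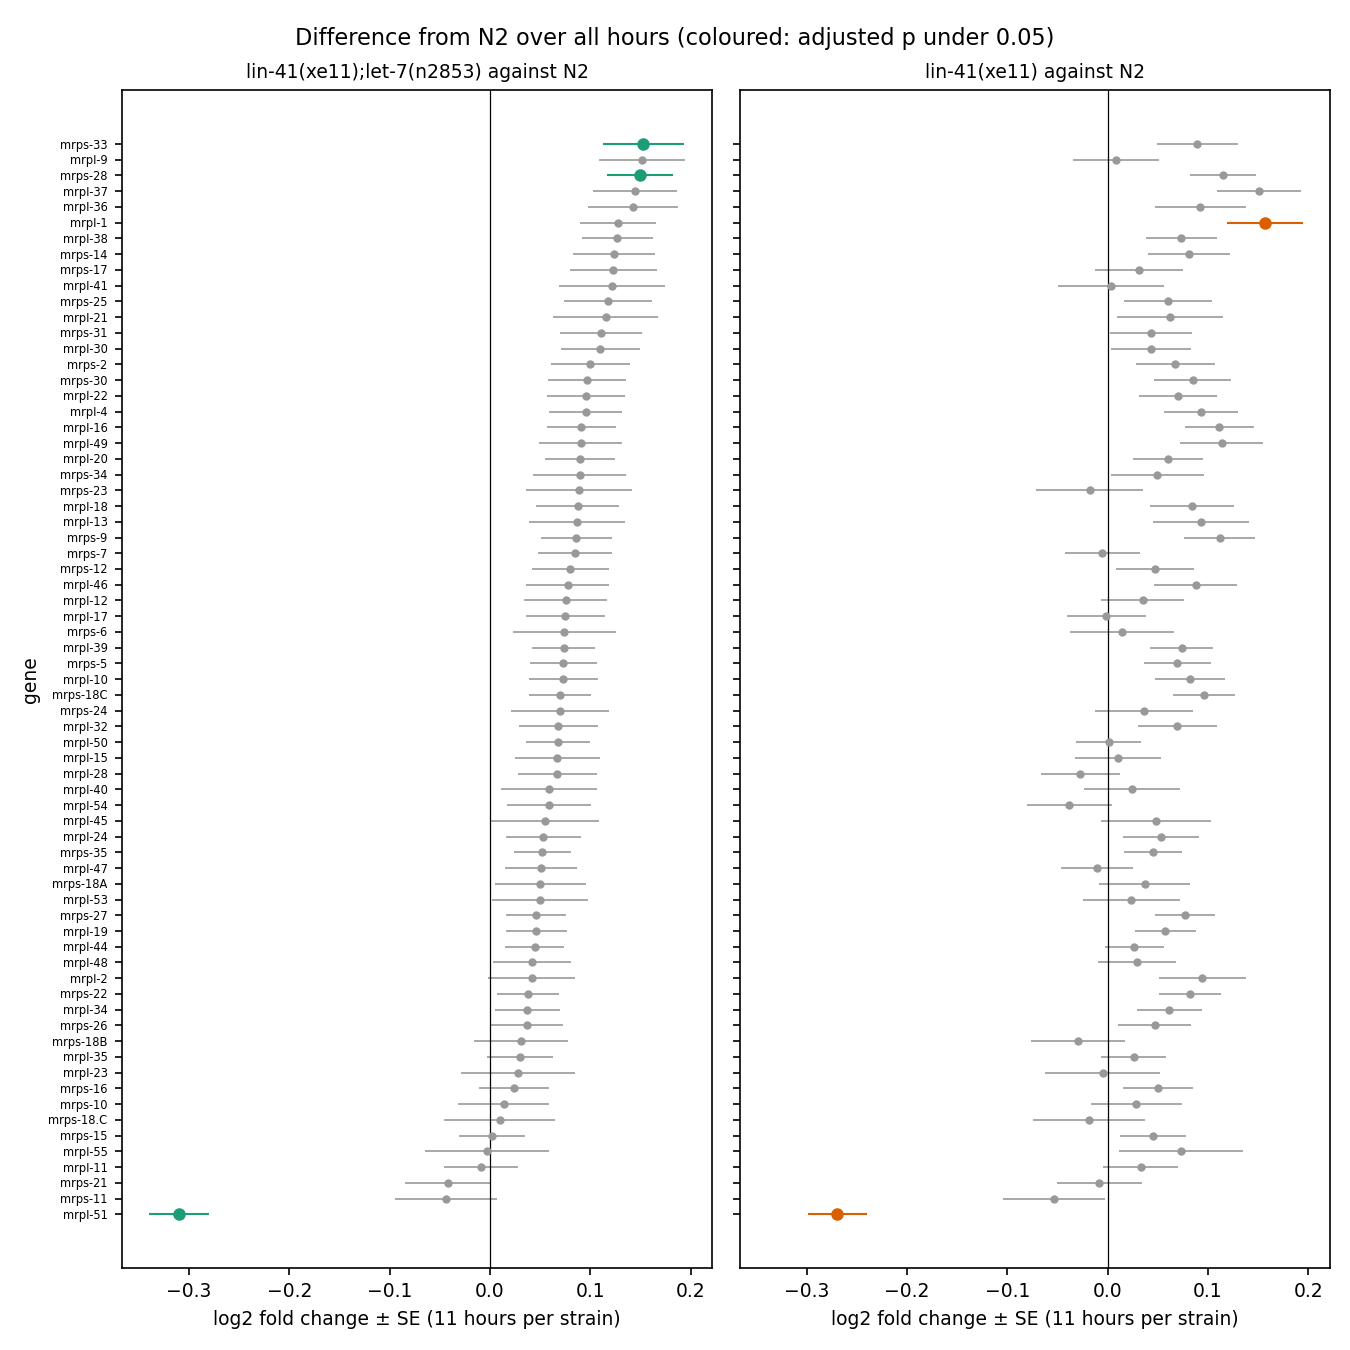
log2 fold change against N2 over 11 hours (edgeR, points with SE) for the 69 genes in the double mutant (left) and lin-41(xe11) (right), with called genes in colour. mrpl-51 stands alone at −0.31 and −0.27, while most other genes lie a little above 0, with medians of 0.07 and 0.05.

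By window, lin-41(xe11) against N2 had 0 of 69 genes called at 18 to 24 h (all genes 0.0222%; 5 at unadjusted p under 0.05 against 5.73% of all genes, 1 by DESeq2 and 0 by limma) and 1, mrpl-51, at 28 to 36 h (all genes 0.415%). The double mutant had 1 in each, again mrpl-51 (all genes 0.0370% early and 0.911% late). Over all hours lin-41(xe11) had 0.950% of all genes called and the double mutant 2.24%. Among the related lists, the elongation factor gene gfm-1 was higher in lin-41(xe11) (0.16 ± 0.04, adjusted p = 0.0464 by edgeR), as 1 of 12 genes of the translation factor list. In the double mutant gfm-1 (0.18 ± 0.04, adjusted p = 0.0145), tufm-1 (0.12 ± 0.03, adjusted p = 0.0294) and mtg-1 (0.34 ± 0.09, adjusted p = 0.0422, all by edgeR) were called higher. The mitochondrial chaperone genes hsp-6 (0.16 ± 0.04, adjusted p = 0.0359) and hsp-60 (0.16 ± 0.04, adjusted p = 0.0246 by edgeR) were higher in lin-41(xe11), as was hsp-60 in the double mutant (0.14 ± 0.04, adjusted p = 0.0332 by edgeR). None of 10 synthetases or 5 genes of mitochondrial DNA maintenance was called in either strain, and of 37 respiratory chain genes 0 and 1 were. The calls on these related lists were not retested without the last hours or without an hour term. The summed import and chaperone genes were lower in lin-41(xe11) than in N2 at 18 h (5346 against 5624 CPM). They were also lower at 30 h (5147 against 5154 CPM). At all other hours they were higher, with 4464 against 3702 CPM at 38 h.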

How the data were processed

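Ribosome footprints of whole animals were counted per gene in 43 libraries; the authors deposited raw footprint counts and a table of log2 values for the same libraries. Reads were mapped with Bowtie, per the submitters' processing notes; how reads with several matches were treated, the mapper's version, annotation and genome build are not given in the sources used here. The deposited log2 values equalled log2 of a scaled count plus 8, with totals of 26096086 (let-7(n2853)) and 12019637 (other strains). The genes, lists and mrpl-51 were chosen with earlier results of these data known.

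Counts were tested with edgeR 4.0.16 (TMM factors, quasi-likelihood test, genes of at least 1 CPM in at least 5 libraries of the fit) in R 4.3.3, and p-values were adjusted by Benjamini-Hochberg over all genes tested; called means an adjusted p under 0.05. Windows within a strain were fitted on that strain alone, leaving out 26 and 38 h. Strains were compared in 1 fit of the double mutant, lin-41(xe11) and N2 with hour as a factor. There is 1 library per strain and hour, so hours stand in for replicates and SDs include developmental change. Alternatives were DESeq2 1.42.0, limma 3.58.1 on the log2 table, other size factors, windows and filters, and leaving out hours. Levels are CPM with TMM factors over all 43 libraries, described and not tested. Named genes are mrpl-51, members called between strains, the 5 highest and 5 lowest of N2 late against early and of level per kilobase, and the 3 largest amplitudes. Genes were matched to names by identifier. Fits were also run on counts simulated with a fixed spread and planted changes. Apart from the planted changes, those counts lacked the developmental change between hours that enters the real fits. The outcome of that run is not given here.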

Additional observations from a re-analysis of the deposited data

Results flagged for a closer look

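Among 64 groups of 4 or 5 libraries checked for a single library far from the rest, 3 held one, and chance marks about 1 group in 20. In the double mutant at 18 to 24 h, mrpl-51 had 46.93 CPM at 20 h and 42.97 to 43.12 CPM at the other hours; 20 h was the highest of the 4 hours in N2 and lin-41(xe11) too. In let-7(n2853) at 18 to 24 h, mrpl-51 had 60.03 CPM at 24 h and 72.18 to 72.75 CPM before. In lin-41(xe11) at 18 to 24 h, the sum of the 69 genes was 4038 CPM at 22 h and 4303 to 4343 CPM at the other hours.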

How the results depend on the processing

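Single libraries per hour limit all tests, depth was lowest in N2 at 20 h, and hours cannot separate sampling error from development. Below, counts are of the 69 genes called. The share of all genes called under the same setting is not given beside them, so they are not read as above or below a background. DESeq2 called 3 in the double mutant, 2 in lin-41(xe11), 1 in N2 and 7 in let-7(n2853) late against early, 1 in N2 for 34 to 38 h against 28 to 32 h, 0 in the double mutant against N2 early, 1 in lin-41(xe11) against N2 early, and 5 in the double mutant over all hours. The deposited log2 table with limma called 1 in the double mutant, 4 in lin-41(xe11) and 10 in N2 late against early, 1 in N2 at the end of the course, 1 in lin-41(xe11) over all hours and 3 for the rhythm; late against early it put mrpl-53 at −0.062 and mrpl-55 at −0.078 in N2, where edgeR had 0.10 for both, and its scaling to a fixed total moved the median of all genes by over 0.1. Wider windows (18 to 26 h and 28 to 38 h) called 2 in the double mutant, 2 in lin-41(xe11) and 3 in N2 late against early, 1 in lin-41(xe11) against N2 early and 3 in the double mutant late, and put mrpl-55 at −0.00027 in N2. Without an hour term, lin-41(xe11) had 1 call over all hours and 0 late, and the double mutant 1 over all hours, 0 early and 0 late. Without 34 and 36 h there were 0 calls in let-7(n2853) late against early and 0 in the late window in both lin-41(xe11) and the double mutant, where mrpl-51 had −0.29 (adjusted p = 0.221) and −0.33 (adjusted p = 0.0579). Without 34, 36 and 38 h there were 25 for any change, 25 for the rhythm and 1 in each strain over all hours. Median-ratio size factors and no filter each gave 1 in lin-41(xe11) over all hours; no filter gave 6 for the rhythm, and N2 alone gave 0. Leaving out each hour in turn gave 0 to 1 in N2, 0 to 1 in lin-41(xe11) and 1 to 4 in let-7(n2853) late against early, 1 to 3 in lin-41(xe11) and 2 to 5 in the double mutant over all hours, 0 to 1 in the double mutant early, 33 to 47 for any change and 4 to 15 for the rhythm. The causes of these differences were not tested. mrpl-51 over all hours was called in all 17 alternatives in both strains, from −0.28 to −0.26 in lin-41(xe11) and from −0.34 to −0.30 in the double mutant. The labels give no replicate numbers. The strain fits pair libraries by their shared hour, and the fits without an hour term are the unpaired alternative.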

Other observations

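Over all 43 libraries and 9464 genes of at least 5 CPM, the 5 genes with the course most like that of mrpl-51 by Pearson correlation of log2 level were mrps-11 (0.82), alp-1 (0.81), pinn-1 (0.81), eif-3.G (0.81) and skr-1 (0.81). These correlations take in the offset between the time courses and are a description. None of these 5 was called against N2 in lin-41(xe11) or the double mutant over all hours; mrps-11, the nearest, had −0.05 ± 0.05 (adjusted p = 0.822) and −0.04 ± 0.05 (adjusted p = 0.736, both by edgeR).

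Of the 6 genes nearest to mrpl-51 on chromosome IV in the WBcel235 annotation, 4 had enough counts to be tested and none of the 4 was called. In the double mutant, tgn-38 had 0.03 ± 0.05, sqst-1 −0.03 ± 0.05, T12G3.2 0.07 ± 0.07 and T12G3.4 −0.06 ± 0.05, and in lin-41(xe11) they had −0.01 ± 0.05, 0.0039 ± 0.05, −0.07 ± 0.07 and −0.05 ± 0.05, with adjusted p between 0.598 and 1 by edgeR.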
